A study of Homo sapiens with 28 samples.

Results

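H3K27me3, the trimethyl mark on lysine 27 of histone H3, lay over 506 autosomal 1 kb windows both in TKO cells themselves and in TKO with introduced wild type NSD2 (WT), and over none of their bases in cells expressing the D1240A or the F1295A form. The windows were chosen by exactly that pattern: at least 50% of the bases under H3K27me3 peaks, merged where 1 kb or less apart, in the TKO list and in the WT list, and no base in either mutant list. Windows start at position 0 of each chromosome. Left out were 93 autosomal 1 Mb blocks, here called shared blocks, in which all 12 deposited peak lists cover at least 10% of the bases. There remained 2780985 windows, of which 12882 were covered in TKO and WT, so the 506 are 3.93% of the windows that could show the pattern. Since H3K27me3 peaks chose the windows, every H3K27me3 value below is a description and carries no test.

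TKO is a derivative of KMS-11, an established human multiple myeloma line, and its cell type is labelled as plasma cell. All 4 conditions share the genotype WHSC1(+/-), WHSC1 being the older name of NSD2. The conditions are TKO itself and TKO expressing NSD2 as wild type, D1240A or F1295A, and the study asks how altered NSD2 affects chromatin marks. The labels do not say which copy of NSD2 is disrupted. The labels name 1 cell line for all of them, so clones, expression levels of the introduced forms and culture batches cannot be told apart from the conditions. Chromatin was fixed with 0.8% formaldehyde, and 24 immunoprecipitates (2 replicates for each condition and each of 3 marks) were made into libraries by tagmentation of the precipitated chromatin, beside 4 inputs that are not analysed here.

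Each deposited list pools both replicates of a condition and mark, so there is 1 list per condition and mark, no spread between replicates and no test of any difference between conditions. H3K27me3 fragments kept by the peak caller numbered 41788534 in TKO and 44812488 in WT, with 33219802 in D1240A and 31097592 in F1295A. The 2 mutant libraries were thus the shallower ones, and depth and mutant form cannot be told apart in what follows. Between 82% and 87% of the H3K27me3 fragments were redundant and discarded. H3K27ac peaks at gene ends were listed for 8 of 10 plasma cell markers in every condition, among them IRF4, PRDM1, XBP1 and TNFRSF17, while CD38 and SDC1 had none. For each condition 1 of 8 B cell markers (CR2 in TKO and WT, CD79A in D1240A and F1295A), 3 of 7 T cell markers (LCK, CD2 and CD3E) and 1 of 6 myeloid markers (CSF3R) had such a peak. NSD2 itself held none of the 506 windows and no H3K27me3 or H3K36me2 peak in any list.

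NSD2 is a methyltransferase that places the dimethyl mark on lysine 36 of histone H3, H3K36me2. H3K27me3 is placed by Polycomb repressive complex 2, whose activity is hindered on nucleosomes already methylated at lysine 36, so the 2 marks tend to occupy different stretches of chromatin. H3K27ac, the acetyl mark on the same lysine 27, is typical of active promoters and enhancers. In myeloma with the translocation between chromosomes 4 and 14, which KMS-11 carries, NSD2 is overproduced, H3K36me2 spreads and H3K27me3 is redistributed.

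Of the promoters in the RefSeq table for GRCh38.p14, each from 250 bases before to 50 after a gene's start, 7 touched one of the windows. The 4 shown carry every CG dinucleotide in capitals, since CG-rich promoters are the best known sites of H3K27me3. OR10J1 was taken by the naming rule, and the other genes were chosen after their values were seen. OR10J1 and OR2AP1 encode olfactory receptors, and their promoters lay wholly inside a window. NCF1 encodes a subunit of the phagocyte NADPH oxidase and has near-identical copies, so its reads may be misplaced. CFAP74 encodes a protein of motile cilia. The NCF1 promoter shared 60 bases with its window and the CFAP74 promoter 36 bases.
OR10J1 (chr1:159439472-159439771, plus strand): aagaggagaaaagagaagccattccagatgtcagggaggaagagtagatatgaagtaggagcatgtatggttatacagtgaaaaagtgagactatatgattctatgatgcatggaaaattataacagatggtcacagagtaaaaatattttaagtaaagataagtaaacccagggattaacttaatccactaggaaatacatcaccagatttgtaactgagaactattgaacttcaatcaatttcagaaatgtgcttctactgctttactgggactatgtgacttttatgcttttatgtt
OR2AP1 (chr12:55572218-55572517, plus strand): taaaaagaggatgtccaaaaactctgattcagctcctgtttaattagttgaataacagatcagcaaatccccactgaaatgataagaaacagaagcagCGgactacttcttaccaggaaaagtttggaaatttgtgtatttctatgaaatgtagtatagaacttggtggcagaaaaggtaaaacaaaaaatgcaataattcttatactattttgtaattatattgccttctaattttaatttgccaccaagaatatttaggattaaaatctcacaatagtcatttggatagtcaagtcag
NCF1 (chr7:74773761-74774060, plus strand): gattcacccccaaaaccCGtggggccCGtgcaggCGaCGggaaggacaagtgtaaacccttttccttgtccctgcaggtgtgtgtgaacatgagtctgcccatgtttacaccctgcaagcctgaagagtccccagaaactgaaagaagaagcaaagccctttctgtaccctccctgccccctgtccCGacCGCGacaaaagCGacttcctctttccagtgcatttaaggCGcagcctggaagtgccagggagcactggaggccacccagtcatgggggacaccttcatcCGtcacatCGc
CFAP74 (chr1:2003737-2004036, minus strand): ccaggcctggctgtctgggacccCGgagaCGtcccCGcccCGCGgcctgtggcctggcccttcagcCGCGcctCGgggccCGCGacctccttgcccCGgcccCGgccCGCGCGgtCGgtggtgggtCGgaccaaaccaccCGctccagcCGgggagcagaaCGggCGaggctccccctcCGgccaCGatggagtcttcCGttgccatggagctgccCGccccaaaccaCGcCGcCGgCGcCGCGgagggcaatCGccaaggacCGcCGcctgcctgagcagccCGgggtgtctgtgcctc

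The OR10J1 promoter held 0 CG dinucleotides at a GC content of 34.0%, and the OR2AP1 promoter 1 at 31.3%. NCF1 held 11 and CFAP74 held 35, the latter at a GC content of 76.3%. The letters CG read the same on both strands. Across the 7 promoters 6 held at least 1 CG (85.7%) and the median was 6, against 96.8% and a median of 7 for the 95 promoters in windows covered in all 4 H3K27me3 lists, and 96.0% and a median of 14 for 32915 autosomal promoters. The median ratio of observed to expected CG was 0.245, 0.345 and 0.579 in the same order. In the OR10J1 window the pileup was 14 fragments in TKO and 15 in WT, with the nearest mutant H3K27me3 peak 0.301 kb away. H3K36me2 covered 0% of that window in TKO and 65.9% in WT, with 63.7% in D1240A and 46.0% in F1295A. In the OR2AP1 window the pileup was 22 in TKO and 17 in WT, and H3K36me2 covered 1.4%, 30.0%, 0% and 0% in the order TKO, WT, D1240A and F1295A. In the NCF1 window the pileup was 12 and 15, and both other marks were present in all 4 conditions: H3K36me2 covered at least 90.0% and H3K27ac at least 74.7% of it. The CFAP74 window, with pileups of 12 and 14, carried neither mark in any list. These promoter windows therefore ranged from no other mark at all to both marks throughout.

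Most of the 506 windows had weak H3K27me3 in the lists that did cover them. Pileup, the highest number of overlapping fragments in a peak as the authors' peak caller gave it, had a lowest value of 11 in the TKO list and 12 in the WT list. Over the 506 windows the highest peak had a median pileup of 16 in TKO (quartiles 14 and 19, range 11 to 224) and 17 in WT (quartiles 16 and 20, range 12 to 685). The 8763 windows covered by at least 50% in all 4 lists, 68.0% of those covered in TKO and WT, had medians of 31 and 33. A pileup of at most 1.5 times the list minimum was found over 269 windows in TKO (53.2%, exact 95% binomial interval 48.7 to 57.6) and over 316 in WT (62.5%, 58.1 to 66.7). Among the windows covered in all 4 lists these shares were 3.49% and 4.87%. Intervals here cover counting error only, and neighbouring windows are not independent. Fold enrichment, which in these files equals pileup plus 1 over a constant of each list, allows levels to be set side by side between lists. Its median over the 506 windows was 3.47 in TKO and 3.51 in WT, against 6.53 and 6.63 in windows covered in all 4 lists.

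**Figure D1:**
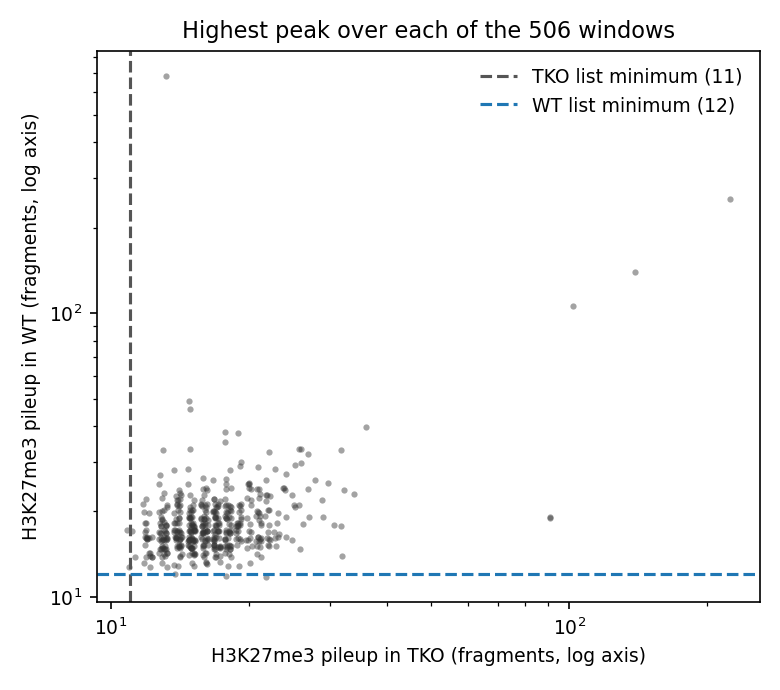
Highest H3K27me3 pileup in TKO (x axis) and WT (y axis), in fragments on log axes, over each of the 506 windows (1 point each, shifted slightly so that points do not hide each other). Dashed lines mark the lowest pileup in each list, 11 in TKO and 12 in WT. Most points crowd just above both lines, and 3 windows reach 100 or more in both lists.

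The lowest fold enrichment a peak could have differed among the lists: 2.45 in TKO and 2.54 in WT, with 2.70 in D1240A and 2.77 in F1295A. Of the 506 windows, 461 had a fold of at least 2.77 in both TKO and WT, at or above the strictest of these minimums. At the other end, 13 windows had a fold of at least 5 in both lists and 3 a fold of at least 10. These 3 were chr10:38813001-38814000 with pileups of 224 and 252 in TKO and WT, chr7:73067001-73068000 with 139 and 140, and chr3:92447001-92448000 with 102 and 106. A mutant peak stood 0.018, 0.016 and 0.061 kb from them. The window with the highest WT pileup, chr21:10690001-10691000, had 685 in WT and 13 in TKO, with a mutant peak 0.099 kb away. A pileup belongs to a whole peak, whose summit need not lie in the window. The summit of a peak lay inside the window in 404 windows in TKO (79.8%), in 417 in WT (82.4%) and in both in 353 (69.8%), and in those 353 the smaller of the 2 folds reached 5.51 at most.

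The share of covered windows without a mutant peak fell with strength. Where the smaller of the TKO and WT folds was below 3, 122 of 418 windows belonged to the 506 (29.2%). The share was 326 of 2981 (10.9%) at a fold of 3 to 4, 45 of 2720 (1.65%) at 4 to 5, 9 of 3126 (0.288%) at 5 to 7, 1 of 1133 (0.0883%) at 7 to 10 and 3 of 2504 (0.120%) at 10 or more. Over the same steps the share covered in all 4 lists went from 16.3% to 33.1%, 63.8%, 82.1%, 90.8% and 95.01%. Windows without a base in D1240A, whatever F1295A showed, were 1227 (9.52%) and those without a base in F1295A 1253 (9.73%). The reverse pattern, covered in D1240A and F1295A with no base in TKO and WT, was met by 100 of 10534 windows (0.949%).

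**Figure D2:**
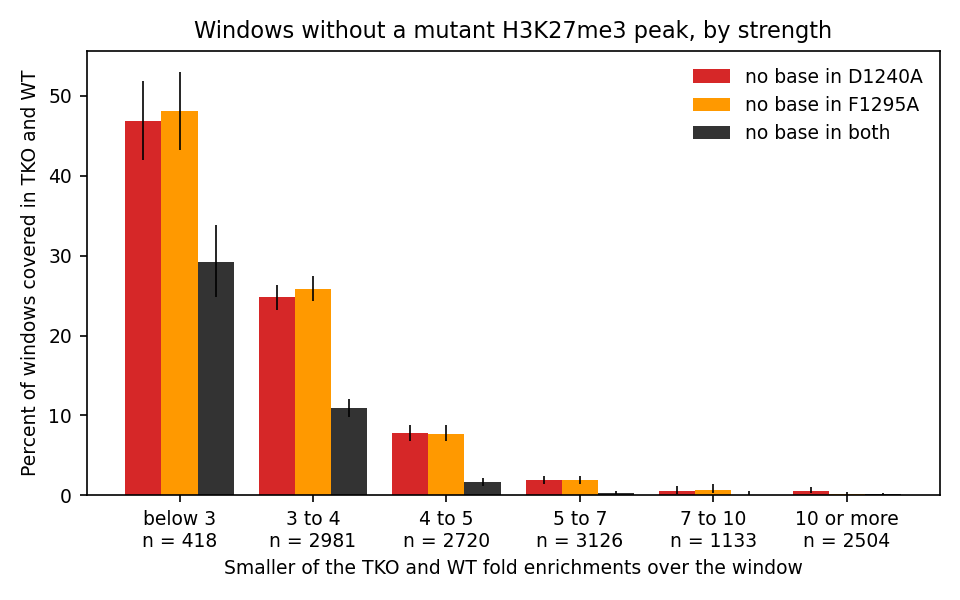
Percent of the windows covered in TKO and WT (y axis) that had no H3K27me3 base in D1240A, in F1295A or in both, by the smaller of the TKO and WT fold enrichments (x axis). Bars are shares with exact 95% binomial intervals, n is the number of windows in each step, and the share without a base in both goes from 29.2% below a fold of 3 to 0.120% at 10 or more.

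Windows on either side of the 50% rule looked alike. The 154 windows whose smaller coverage was 50% to under 60% had median folds of 3.47 in TKO and 3.51 in WT, and the 308 windows just outside, at 40% to under 50%, had 3.47 and 3.71. The 132 windows covered over 100% of their bases in both had 3.88 and 3.71. The 105 windows kept out by 1 to 100 mutant bases had 4.08 and 4.10.

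The windows lay beside chromatin that was marked in the mutants too. A D1240A or F1295A peak stood within 1 kb of 335 windows (66.2%) and within 5 kb of 457 (90.3%), and 9 windows (1.78%) were more than 50 kb from one. The median distance was 0.474 kb. In the adjacent window H3K27me3 covered a mean of 44.3% of bases in TKO and 45.7% in WT, with 15.9% in D1240A and 14.6% in F1295A. At 11 to 20 windows away the means were 21.9%, 20.9%, 14.6% and 13.7%. Out to that distance the mutant lists held less H3K27me3 than TKO and WT. They were also shorter over all autosomes, with peaks over 62.6 Mb in D1240A and 62.8 Mb in F1295A, against 72.4 Mb in TKO and 69.0 Mb in WT. The flanks of other covered windows were not profiled, so a lower level particular to these windows was not shown.

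**Figure D3:**
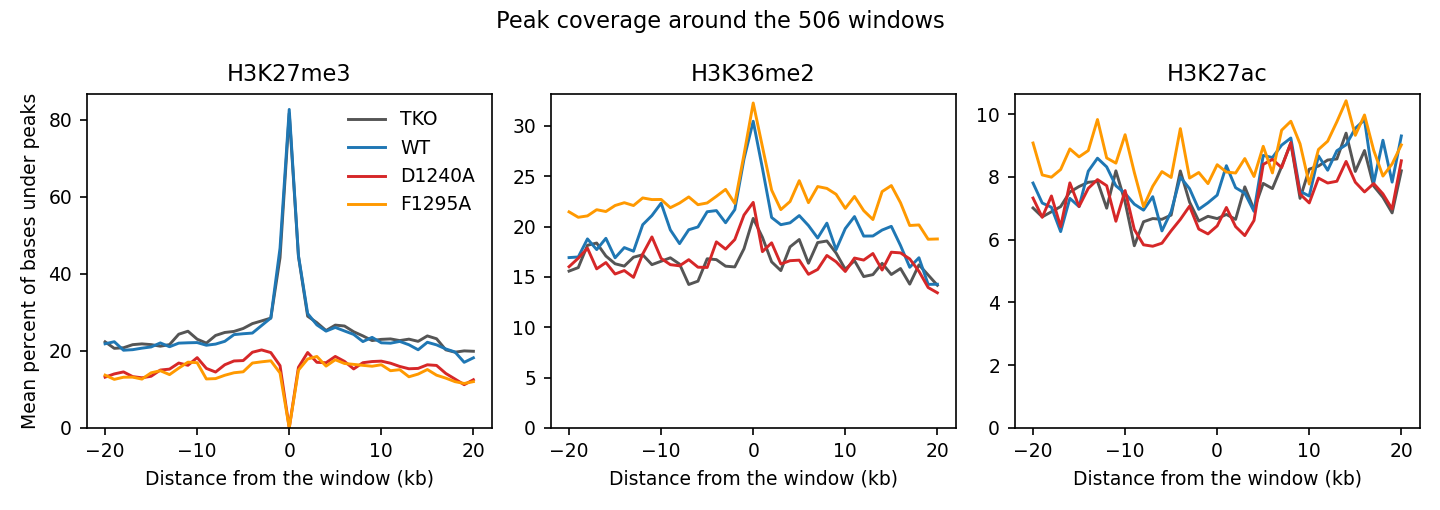
Mean percent of bases under peaks (y axis) in 1 kb windows up to 20 kb on either side of the 506 windows (x axis, distance in kb), for H3K27me3, H3K36me2 and H3K27ac, with 1 line per condition. The H3K27me3 values at 0 follow from the rule, H3K36me2 rises at the window in all 4 conditions, and H3K27ac does not.

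In 172 windows (34.0%) the whole merged TKO domain and the whole WT domain were without a mutant base. These domains were short, with medians of 0.997 kb in TKO and 1.10 kb in WT, and lay a median of 2.71 kb from the nearest mutant peak. In the other 334 windows a domain that held the window also held a mutant peak, the median domain lengths were 2.82 and 2.83 kb and the median distance was 0.251 kb. Median pileups were 15 and 17 in the first kind and 17 and 18 in the second. H3K27ac touched 9.88% to 12.8% of the first kind, depending on the condition, and 18.9% to 25.1% of the second, while H3K36me2 touched 37.8% to 46.5% and 37.4% to 49.7%.

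H3K36me2 was found in a larger share of the 506 windows in WT and F1295A than in TKO and D1240A. A peak touched 190 windows in TKO (37.5%, exact interval 33.3 to 41.9) and 242 in WT (47.8%, 43.4 to 52.3), with 196 in D1240A (38.7%, 34.5 to 43.1) and 246 in F1295A (48.6%, 44.2 to 53.1). The H3K36me2 fragments kept were 62550152 in WT and 69211726 in F1295A, the lowest and highest of the 4. Over all 2780985 windows the shares were 4.68% in TKO and 2.44% in WT, with 3.49% in D1240A and 4.71% in F1295A. The 506 windows were therefore richer in H3K36me2 peaks than the autosomes at large, and their order of conditions was not the order over all windows. The windows covered by H3K27me3 in all 4 lists held more, at 84.5%, 91.1%, 85.8% and 83.8% in the order TKO, WT, D1240A and F1295A. At a matched H3K27me3 fold of 3 to 4 the 506 windows' shares were 37.7%, 48.8%, 40.2% and 49.7%, against 59.3%, 71.9%, 62.8% and 63.2% in windows covered in all 4 lists. Below a fold of 3 the 506 windows' shares were 30.3%, 43.4%, 29.5% and 44.3%. At a fold of 4 to 5, with 45 of the 506 windows, they were 51.1%, 51.1%, 48.9% and 48.9%. The larger shares in WT and F1295A were thus not seen in that small step. Coverage of the same bases by H3K27me3 and H3K36me2 peaks in a population of cells does not show that both marks sat on 1 nucleosome. The peaks were called with no control and no local background, so signal raised in every library alike was not separated from a mark. Of the windows covered by H3K27me3 in all 4 lists, 73.0% had H3K36me2 in every condition and 39.2% had H3K27ac in every condition. Over all windows these shares were 0.938% and 3.19%.

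H3K36me2 was split between the mutants and the other conditions in few of these windows. The shares were still larger than over all windows or over windows covered by H3K27me3 in all 4 lists. It was listed in both mutants and in neither TKO nor WT in 16 windows (3.16%), in TKO and WT and neither mutant in 13 (2.57%), in all 4 conditions in 93 (18.4%) and in none in 171 (33.8%). Over all windows the first 2 patterns had shares of 0.295% and 0.128%, and over windows covered by H3K27me3 in all 4 lists 0.514% and 1.61%. Among the 16, the window at chr12:55953001-55954000 at the end of DGKA had 66.6% of its bases under H3K36me2 in D1240A and 100% in F1295A, and 0% in TKO and WT. Such a window also lay in ELAPOR1, FCMR and GOLGA6L10, among others. The reverse was seen at OR2AP1, LOC124903442, HYDIN and SPIDR.

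H3K27ac peaks touched 90 windows in TKO (17.8%) and 104 in WT (20.6%), with 81 in D1240A (16.0%) and 105 in F1295A (20.8%). The exact intervals, for counting error over windows alone, were 14.6 to 21.4, 17.1 to 24.3, 12.9 to 19.5 and 17.3 to 24.5 percent. Over all windows the shares were 4.29%, 4.13%, 4.31% and 4.28%, and over windows covered by H3K27me3 in all 4 lists 59.6%, 54.7%, 51.9% and 66.9%. At a matched H3K27me3 fold of 3 to 4 the shares lay closer, at 19.0%, 20.6%, 16.6% and 20.2% of the 506 windows against 28.04%, 24.2%, 23.7% and 37.3% of windows covered in all 4 lists. Below a fold of 3 they were 13.1%, 18.0%, 13.9% and 20.5% against 19.1%, 19.1%, 16.2% and 23.5%. H3K27ac was in neither TKO nor WT and in both mutants in 7 windows (1.38%), 2 of them in SORT1. That pattern had a share of 0.111% over all windows and 2.04% over windows covered by H3K27me3 in all 4 lists. H3K27ac was in TKO and WT and in neither mutant in 13 (2.57%, against 0.0863% and 1.45%), among them windows in ZNF595, GTF2IRD2B and LOC124903442. No condition had H3K27ac in 312 windows (61.7%), and 24 (4.74%) had it in all 4. In 155 windows (30.6%) neither H3K36me2 nor H3K27ac was listed in any condition, compared with 3.42% of windows covered by H3K27me3 in all 4 lists and 88.6% of all windows.

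**Figure D4:**
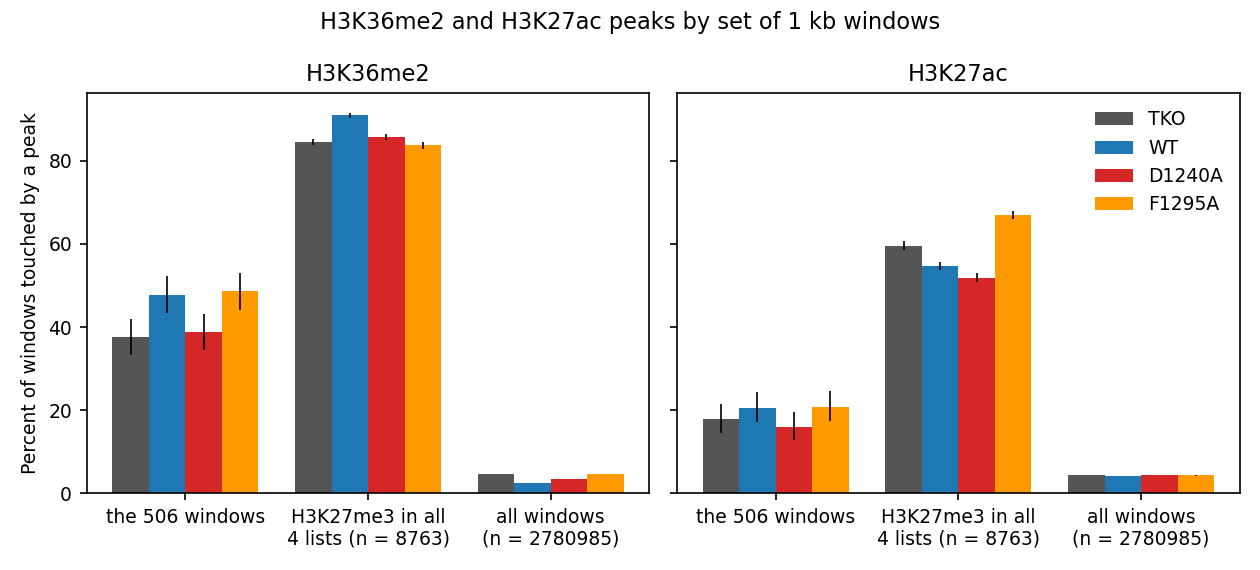
Percent of 1 kb windows touched by a peak (y axis) of H3K36me2 (left) or H3K27ac (right) in each condition, for the 506 windows, the 8763 windows covered by H3K27me3 in all 4 lists and all 2780985 windows. Bars are shares with exact 95% binomial intervals for counting error, and the 506 windows stand between the other sets for both marks.

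Chromosomes 1 and 12 held more of the windows than their size or their H3K27me3. Chromosome 1 had 161 of them, 31.8% of the 506 against 8.12% of all windows, and they made up 10.5% of its 1536 windows covered in TKO and WT. Chromosome 12 had 45, or 9.28% of 485. The other autosomes together had 300 of 10861 (2.76%), chromosome 3 had 13 of 1362 (0.954%) and chromosome 14 had 0 of 257. Covered windows on chromosomes 1 and 12 were weaker, with a median smaller fold of 4.08 on each against 5.46 on the others. Within the fold step of 3 to 4 the share was still 17.6% on chromosome 1 and 14.1% on chromosome 12, against 8.73% on the others. Chromosome 17 held 37 of the 506, or 2.398% of its 1543 windows covered in TKO and WT. That share was near the 2.76% of all autosomes other than 1 and 12, of which it is part. It also held 27 of the 100 windows of the reverse pattern. Windows covered in D1240A and F1295A are not given here by chromosome, so these 27 have no share to compare.

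On chromosome 12, 38 of the 45 windows lay in 1 stretch around shared blocks, whereas on chromosome 1 such a stretch held 58 of the 161. In chr1:158000001-163000000, a region with clustered CD1, olfactory receptor and pentraxin genes, 58 of 394 covered windows (14.7%) belonged to the 506. In chr12:54000001-59000000, which runs from the HOXC cluster past PMEL, 38 of 305 did (12.5%). Each stretch held 2 shared blocks, which were not counted. Outside its stretch, the chromosome 1 block with most of the windows was chr1:205000001-206000000. It held 10 of 55 covered windows (18.2%) and lay 44 Mb from a shared block. Over all autosomes 149 of the 506 windows (29.4%) stood in a block next to a shared block, against 21.7% of windows covered in TKO and WT. The 506 windows occupied 223 of the 1489 blocks that had any covered window.

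Most windows stood alone. Joined where 5 kb or less apart, they formed 444 runs, of which 396 were 1 window, 38 were 2, 6 were 3 and 4 were 4 windows. A run of 4 adjoining windows at chr1:159622001-159626000, 33.1 kb from APCS, which encodes a serum pentraxin, was covered by H3K27me3 over 100% of its bases in TKO and WT. Its highest pileups were 15 in TKO and 23 in WT, and its H3K36me2 coverage was 32.8% in TKO and 37.8% in WT, with 10.9% in D1240A and 94.3% in F1295A. The 2 mutant lists thus stood at opposite ends of the H3K36me2 range there. A run of 3 windows at chr1:159692001-159695000, 17.3 kb from CRP, the C-reactive protein gene, had H3K36me2 over 0% in TKO and 100% in WT, with 18.7% in D1240A and 33.2% in F1295A. A run of 3 at chr1:207012001-207015000, 3.52 kb from C1orf116, had neither H3K36me2 nor H3K27ac in any list, with pileups of at most 17 in TKO and 22 in WT. A run of 3 windows at chr1:159726001-159732000 lay 11.4 kb from CRP, 1 at chr1:159553001-159560000 lay 16.99 kb from the olfactory receptor gene OR10J5, and 1 at chr1:882001-890000 lay 33.9 kb from SAMD11. The other 4 of the 10 runs with most windows were in TYW1B, DGKA and PMEL, ZNF595 and OR2A42.

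Protein-coding genes overlapped 159 of the 506 windows (31.4%), compared with 25.7% of windows covered in all 4 lists and 43.6% of all windows. The 1 kb around an end of such a gene was touched by 39 windows (7.71%), compared with 4.36% and 3.52%. The annotation used here gives neither strand nor exons, so starts and ends, exons and introns were not separated. Long non-coding RNA genes overlapped 77 windows (15.2%), compared with 11.6% of windows covered in all 4 lists and 16.1% of all windows. Pseudogenes overlapped 28 (5.53%), compared with 5.98% and 2.05%. A microRNA gene lay in 2 windows (0.395%, compared with 0.137% and 0.0641%), MIR556 within NOS1AP on chromosome 1 and MIR5692B on chromosome 21. Altogether 124 protein-coding genes had at least 1 of the windows, which is 0.673% of 18420 genes and 10.5% of the 1180 genes with a window covered in TKO and WT. Of these genes 98 had 1 window, and 66 had no window covered in all 4 lists.

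NOS1AP, an adaptor protein of neuronal nitric oxide synthase, had the most windows, 8 of its 27 covered in TKO and WT, spread over chr1:162165001-162343000. H3K27me3 peaks covered 32.6% of the gene body in TKO and 20.02% in WT, with 15.9% in D1240A and 10.0% in F1295A. H3K36me2 peaks covered 17.2%, 29.3%, 22.1% and 47.1% in the same order, so its lowest value was in the condition with the highest H3K27me3 and its highest in the one with the lowest. In the 8 windows H3K36me2 was listed in 3 in TKO and 7 in WT, with 5 in D1240A and 6 in F1295A. The highest of these windows by smaller fold had pileups of 16 in TKO and 17 in WT, where the list minimums were 11 and 12. ENPP6, a choline-specific phosphodiesterase with 3 windows, had the same order of H3K27me3 and the highest H3K36me2 in F1295A too, with H3K27me3 over 32.8%, 24.9%, 17.9% and 12.9% of its body and H3K36me2 over 23.1%, 26.2%, 23.1% and 47.7%. F1295A also had the largest share of H3K36me2 over all windows, at 4.71% against 4.68% in TKO. H3K27me3 windows absent in the mutants chose these genes, and an exchange of marks was not tested. Not every gene followed the order of NOS1AP and ENPP6. In PMEL and OR2A42, both marks had their lowest value in D1240A. Their H3K36me2 covered 24.6%, 5.13%, 4.75% and 27.2% of PMEL and 17.8%, 40.8%, 3.97% and 26.1% of OR2A42, in the same order of conditions.

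PMEL, which encodes a structural protein of melanosomes, and DGKA, a diacylglycerol kinase, lie end to end and shared a run of 4 windows at chr12:55953001-55961000. H3K27me3 covered 69.5% of PMEL in TKO and 50.04% in WT, with 8.75% in D1240A and 18.9% in F1295A. For DGKA the values were 41.5%, 47.0%, 20.5% and 30.5%. Pileups in the run were 17 to 22 in TKO and 19 to 23 in WT, and 1 of its windows adjoined a mutant peak. Over the whole of DGKA, H3K36me2 covered 46.7% to 73.2% and H3K27ac 34.5% to 43.8% across conditions.

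The HOXC cluster gave the only HOX genes, which encode homeodomain factors that set position along the body axis and are classical Polycomb targets. HOXC4, HOXC5 and HOXC6 as annotated overlap each other and share the window chr12:54017001-54018000, with pileups of 17 in TKO and 26 in WT, and 0.091 kb from a mutant peak. That window carried H3K27ac in every condition, over 59.0% of its bases in TKO and 51.5% in WT, with 75.4% in D1240A and 79.3% in F1295A. A second window of HOXC4, chr12:54036001-54037000, had pileups of 13 and 19 and no H3K27ac in any list. Over HOXC4 as a whole H3K27me3 covered 50.2% in TKO and 75.7% in WT, with 38.7% in D1240A and 53.0% in F1295A, so the F1295A value exceeded the TKO value. HOXC4 had 11 windows covered in all 4 lists besides these 2.

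The other genes of the naming rule with most windows included several with little H3K27me3 in 1 or both mutant lists. Of 18 genes with 2 windows, the rule took the 7 in which these were the larger share of the gene's windows. RAB7B, a small GTPase of late endosomes, had H3K27me3 over 31.3% of its body in TKO and 42.5% in WT, with 6.85% in D1240A and 6.95% in F1295A. SLC26A9, an epithelial chloride transporter, was covered over 25.2%, 38.7%, 0% and 22.5%, so that the F1295A list held nearly as much as TKO, outside the 2 windows. ELAPOR1, which encodes a transmembrane protein of the endosomal and lysosomal system, was covered over 22.8%, 18.9%, 11.02% and 9.87%. RBFOX3, the neuronal splicing factor known as NeuN, was covered over 8.32%, 17.6%, 4.82% and 7.16% and carried neither other mark in its 3 windows. CD1B, which presents lipid antigens, was covered over 28.02%, 37.8%, 23.1% and 10.5%, and OR10J1 over 44.3%, 32.2%, 23.5% and 12.8%. OR2A42, TYW1B, ZNF595, ANKRD36, GOLGA6L10 and GTF2IRD2B belong to families of near-identical copies, so their reads may have been split or misplaced. For OR2A42 the values were 35.5%, 34.9%, 0% and 6.59%, for TYW1B 20.9%, 13.4%, 6.80% and 3.75%, and for ZNF595 20.2%, 19.9%, 6.92% and 3.62%. The uncharacterised LOC124903442 had 41.2%, 35.5%, 26.8% and 10.2%. Of the 124 genes, 95 had less of the gene body covered in both mutants than in both TKO and WT, and 8 had none covered in the mutants. The windows that chose these genes are part of these values. The mutant H3K27me3 lists were also shorter over the autosomes as a whole. The same counts were not made over the 1180 genes with a window covered in TKO and WT, so they have no baseline.

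**Figure D5:**
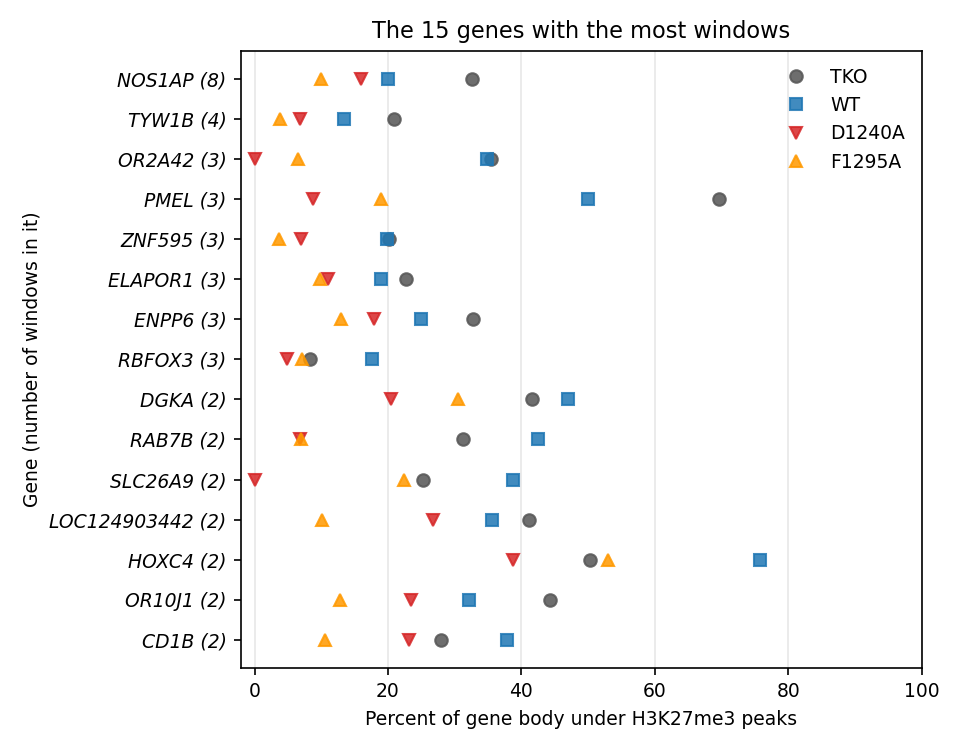
Percent of the gene body under H3K27me3 peaks (x axis) in each condition for the 15 genes taken by the naming rule as having most of the 506 windows (y axis, number of windows in brackets). Points are single pooled lists without error, and PMEL spans the widest range, from 8.75% in D1240A to 69.5% in TKO.

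Beyond these 15, the naming rule took the 10 genes with the strongest window. MUC4, a membrane-bound mucin, had a window with pileups of 32 in TKO and 33 in WT, or folds of 6.74 and 6.63. Windows holding the summit in both lists reached a smaller fold of 5.51 at most. In at least 1 list the MUC4 value therefore belongs to a summit outside the window. KCNJ6, a neuronal potassium channel subunit, had 25 and 29 in the 1 window of it covered in TKO and WT. NFASC, the cell adhesion molecule neurofascin, had 22 and 32, MEGF6 29 and 22, C1orf21 21 and 29, and ANKRD36 22 and 22. ACSBG1, an acyl-CoA synthetase, had 20 and 22, NEB, the muscle protein nebulin, 20 and 21, LOC105377864 20 and 24 and LOC124901580 20 and 22. These last 4 tied on the smaller fold with SLAMF9 and PARD3B, which the rule left out by alphabetical order. The KCNJ6, NFASC and MEGF6 windows carried neither H3K36me2 nor H3K27ac in any list, as did that of ACSBG1, whereas those of C1orf21 and NEB had H3K36me2 in all 4.

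Few members of the gene lists looked up held a window. Among 35 HOX genes measured 3 did, of 5 with any window covered in TKO and WT, and they are the overlapping ones above. Among 156 developmental transcription factors 1 did, EMX1, a forebrain homeobox gene, whose H3K27me3 covered 7.80% in TKO and 22.2% in WT, with 1.37% in D1240A and 0% in F1295A, at pileups of 16 and 19. Among 80 cell adhesion genes, the theme of the series, 2 did, NFASC and ITGA7, of 16 with a covered window. ITGA7, a laminin-binding integrin subunit, had H3K27me3 over 57.3% of its body in TKO and 73.5% in WT, with 46.6% in D1240A and 42.5% in F1295A, with pileups of 18 and 25 in its window. NFASC was covered over 11.2%, 20.5%, 6.91% and 9.15%. Among 89 neuronal channels and receptors 1 did, KCNJ6. None did among 74 developmental signalling genes, 53 clustered protocadherins, 17 plasma cell genes, 17 genes of myeloma with the translocation, 34 B cell, 31 T and NK cell, 18 myeloid, 34 immediate early, 43 H3K27 and H3K36 modifier and 29 housekeeping genes. Of genes with a window covered in TKO and WT, 2 of 16 adhesion genes and 3 of 5 HOX genes held one of the 506, against 10.5% of all such genes, and the 3 HOX genes share a window.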

How the data were processed

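Chromatin marks were measured by ChIPmentation in 4 conditions, with the TKO genotype shared by all. Per the submitters' processing notes, reads were handled with Trimmomatic 0.36, FastQC 0.11.4 and Bowtie2 2.4.5 on GRCh38, and peaks called with MACS2 2.2.7.1. Per the file headers, each list came from both replicates together, with paired-end fragments, 1 fragment kept per position, no control, no local background and a q value limit of 0.05. The deposited pileup is an unscaled signal in fragments, the deposited fold enrichment is a ratio, and the deposited q value of a peak is given as −log10. The 12 columns of −log10 p were not used. Pooled fragments rather than replicates set the precision.

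H3K27me3 peaks were merged within 1 kb and counted in windows with Python 3.11.15, numpy 2.4.6, pandas 2.3.3 and SciPy 1.17.1; figures used matplotlib 3.10.9. The counting was tested on copies of the merged TKO H3K27me3 list, with chosen fully covered windows cut out of the copies standing for the mutants. That checks the counting of windows alone, not the calling of peaks near the limit. The unmerged peaks defined the shared blocks. Gene extents and promoters came from RefSeq GRCh38.p14. Named genes were the 15 with most windows, the 10 others with the highest smaller fold, and up to 4 of each of 15 gene lists; named regions were the 10 runs with most windows, and 1 of the 4 shown promoters belongs to a named gene. Ties in number of windows went to the larger share of a gene's windows, and ties in fold to alphabetical order. The windows, lists and rules were chosen with earlier results of these data known. Some genes and 1 of the lists are not reported here. No comparison between conditions was tested, because each has 1 list per mark.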

Additional observations from a re-analysis of the deposited data

How the results depend on the processing

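The number of windows depended on how strictly coverage was read. Values that moved by more than 1.5 times (counts) or beyond the exact binomial interval (shares) were 75 of 144, over 12 alternatives to each of 12 values, and their cause was not tested. With a −log10 q of at least 5 in all lists, there were 304 windows in 73 protein-coding genes, pileup was at most 1.5 times the list minimum over 89.5% in TKO and 85.2% in WT, H3K36me2 touched 55.9% in TKO and 65.8% in WT, with 57.9% in D1240A and 61.8% in F1295A, and H3K27ac touched 28.9% in TKO and 28.3% in WT, with 24.7% in D1240A and 31.9% in F1295A. With 100% of a window covered in TKO and WT, there were 132 windows in 33 protein-coding genes, pileup was at most 1.5 times the list minimum over 34.8% in TKO and 50.8% in WT, H3K36me2 touched 43.2% in D1240A and 59.1% in F1295A, and H3K27ac touched 22.7% in TKO and 29.5% in F1295A. With 25% required, there were 2396 windows in 552 protein-coding genes, pileup was at most 1.5 times the list minimum over 62.6% in TKO and 68.8% in WT, H3K36me2 touched 42.0% in WT and 43.2% in F1295A, and H3K27ac touched 11.02% in TKO and 12.8% in WT, with 10.5% in D1240A and 12.9% in F1295A. Without merging of peaks, there were 208 windows in 71 protein-coding genes, pileup was at most 1.5 times the list minimum over 44.2% in TKO and 57.7% in WT, and H3K36me2 touched 45.7% in D1240A. With merging within 3 kb, there were 1831 windows in 240 protein-coding genes, pileup was at most 1.5 times the list minimum over 76.4% in TKO and 81.4% in WT, H3K36me2 touched 26.8% in TKO and 32.9% in WT, with 28.4% in D1240A and 37.1% in F1295A, and H3K27ac touched 11.9% in TKO and 15.3% in WT, with 12.2% in D1240A and 14.4% in F1295A. With every H3K27me3 list cut to the covered length of the shortest by fold, there were 127 windows in 38 protein-coding genes, pileup was at most 1.5 times the list minimum over 82.7% in TKO and 80.3% in WT, H3K36me2 touched 46.5% in D1240A, and H3K27ac touched 22.0% in TKO. With a common minimum fold, pileup was at most 1.5 times the list minimum over 78.0% in TKO and 82.2% in WT. With no mutant peak within 1 kb either, there were 171 windows in 54 protein-coding genes, pileup was at most 1.5 times the list minimum over 63.2% in TKO and 70.8% in WT, H3K36me2 touched 43.3% in D1240A, and H3K27ac touched 10.5% in TKO, 15.8% in WT and 15.2% in F1295A. With the shared blocks kept, there were 1009 windows in 224 protein-coding genes, pileup was at most 1.5 times the list minimum over 45.9% in TKO and 54.9% in WT, H3K36me2 touched 51.5% in TKO and 59.2% in WT, with 53.3% in D1240A and 61.0% in F1295A, and H3K27ac touched 32.5% in TKO and 34.9% in WT, with 32.4% in D1240A and 35.8% in F1295A. A share not given for a setting stayed within its interval. Up to 10% coverage allowed in the mutants (611 windows), windows starting at position 500 (500 windows) and shared blocks taken from merged peaks (488 windows, an alternative chosen after seeing the data) moved none of the 12 values, and the common minimum fold (427 windows) moved the 2 shares on pileup, because it raises the list minimum. The −log10 q cut and the cut to equal covered length also leave out weaker peaks and so raise the list minimum. Their larger pileup shares therefore do not mean weaker windows. The windows' weak pileup, the shallower mutant libraries and the pooling of replicates limit every count here: a window without a listed peak may still hold fragments below the limit. No paired analysis was possible because the deposited lists pool the replicates.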

Other observations

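The same pattern was counted where the 506 windows were not sought. On the X chromosome 17 of 927 windows covered in TKO and WT had no base in either mutant list (1.83%), and inside the 93 shared blocks 503 of 50358 did (0.999%), both below the 3.93% outside them.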
